A study of Mus musculus with 6 samples.

Results

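The neurotrophin genes examined here are 7 of the 45703 genes in the count table: the ligand genes Bdnf, Ntf3 and Ntf5, the Trk receptor genes Ntrk2 and Ntrk3, the p75 receptor gene Ngfr, and Sort1, which encodes sortilin. They were taken by symbol, from a list of ligand and receptor genes of the family that was drawn up with earlier results of these data known. All 7 were found, and 5 of them passed edgeR's filter on low counts. The libraries came from 1 group of 6 replicate cultures, so every comparison is between cultures or between genes of the same library. Each culture was grown for 7 days from dorsal root ganglia (DRG) of wild-type C57BL/6 mice aged 4 to 6 weeks, in medium with 10% serum plus EGF and FGF at 10 ng/ml, and its RNA was pooled from 2 dishes. Mixed cells were sequenced in bulk, so more cells of a type and more RNA per cell cannot be told apart for any value below. The series describes the cultures as biological replicates without saying whether they came from separate animals, so p-values apply only to these 6 samples.

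Neurotrophins are secreted growth factors of the nervous system. They are made as longer precursors, the proneurotrophins, which furin and related convertases cut to the mature factor. The products of Bdnf and Ntf5 activate TrkB, encoded by Ntrk2, and the product of Ntf3 activates TrkC, encoded by Ntrk3. Both are receptor tyrosine kinases. All mature neurotrophins also bind the receptor encoded by Ngfr, which has no kinase of its own, and proneurotrophins bind a complex of that receptor with sortilin. In the DRG, TrkC is known as a receptor of proprioceptive neurons and TrkB of a class of touch receptors. Schwann cells raise Ngfr after nerve injury, and glial cells carry a shortened TrkB that lacks the kinase.

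Start-site sequences are shown for the member with the highest level, for 1 member that was not counted at all, for the more highly counted Trk receptor, and for a ligand gene with several starts. Each is the window of 250 bases before a RefSeq start on GRCm38.p6, in the direction of transcription: chr11:95587699-95587948 on the minus strand for Ngfr, chr6:126166745-126166994 on the minus strand for Ntf3, chr13:58806319-58806568 on the plus strand for Ntrk2, and chr2:109692186-109692435 on the plus strand for Bdnf. The Ntf3 and Ntrk2 windows lie partly, and the Bdnf window wholly, inside the gene coordinates given below. Capitals mark the GC box GGGCGG and the half-site TGACG of the cyclic AMP response element, each on either strand.
Ngfr: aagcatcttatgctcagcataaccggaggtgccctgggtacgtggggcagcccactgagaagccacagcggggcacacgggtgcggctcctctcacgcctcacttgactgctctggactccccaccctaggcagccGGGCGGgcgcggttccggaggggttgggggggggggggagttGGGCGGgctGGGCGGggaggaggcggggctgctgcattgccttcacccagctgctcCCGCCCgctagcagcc
Ntf3: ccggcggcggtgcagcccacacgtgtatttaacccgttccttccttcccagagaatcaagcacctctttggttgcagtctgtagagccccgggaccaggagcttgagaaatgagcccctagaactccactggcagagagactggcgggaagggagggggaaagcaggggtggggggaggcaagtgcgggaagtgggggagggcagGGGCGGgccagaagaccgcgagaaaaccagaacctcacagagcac
Ntrk2: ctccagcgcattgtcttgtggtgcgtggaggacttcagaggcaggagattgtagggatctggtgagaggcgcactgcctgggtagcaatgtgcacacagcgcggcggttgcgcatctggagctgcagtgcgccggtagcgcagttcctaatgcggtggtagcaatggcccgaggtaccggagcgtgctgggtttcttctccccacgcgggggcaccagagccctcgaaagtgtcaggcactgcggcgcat
Bdnf: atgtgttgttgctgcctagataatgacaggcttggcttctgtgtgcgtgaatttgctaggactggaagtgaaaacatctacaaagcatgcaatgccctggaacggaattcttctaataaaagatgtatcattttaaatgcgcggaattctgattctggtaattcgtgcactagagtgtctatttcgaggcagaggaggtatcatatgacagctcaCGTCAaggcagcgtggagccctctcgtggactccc
The Ngfr window held 4 GC boxes, and 70.4% of its bases were G or C, against a median of 52.4% over the 32851 windows of the same length in the table. The Ntf3 window held 1 GC box and had 62.0% G or C, so the uncounted gene also had a start of above-median GC content. The Ntrk2 window held 19 CG dinucleotides, where the median window had 6, and no GC box. At least 1 GC box was found in 32.7% of all windows. Bdnf has 7 windows in the table, and the half-site TGACG was found in the printed one alone, whereas 17.8% of all windows held it. The sequence TATAAA, present in 12.4% of all windows, was in none of the windows of these 4 genes. Windows were matched for 4 of the 7 genes. Counts are per gene, so the starts in use were not measured.

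The p75 receptor gene stood far above the other members. Ngfr (chromosome 11, 95568818 to 95587698, minus strand, GRCm38.p6) was counted at 1551, 1176, 887, 816, 1106 and 679 CPM (the count of a gene scaled to its library's total, in the usual CPM unit) in replicates 1 to 6. The mean was 1036 ± 312 CPM (SD, n = 6), which gave the gene rank 76 of all genes by mean CPM. Replicate 1 was highest and replicate 6 lowest, a 2.29-fold range. Ngfr counts were fractional in all 6 libraries although no other gene of the table overlapped its coordinates. Sort1 (chromosome 3, 108283974 to 108361519, plus strand), whose product also sorts proteins from the Golgi to endosomes, was counted at 188, 234, 181, 172, 112 and 213 CPM, with a mean of 183 ± 41.5 CPM (SD, n = 6). Replicate 5 was the lowest for Sort1 and replicate 2 the highest.

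The receptor genes of the Trk family differed from each other in every library. Ntrk2 (chromosome 13, 58806472 to 59133970, plus strand) was counted at 251, 285, 282, 262, 162 and 281 CPM in replicates 1 to 6, with a mean of 254 ± 46.9 CPM (SD, n = 6). Replicates 1 to 4 and 6 lay close together, and replicate 5 lay apart below them. Ntrk3 (chromosome 7, 78179986 to 78581034, minus strand) was counted at 19.4, 7.88, 16.9, 13.9, 17.4 and 18.3 CPM, with a mean of 15.6 ± 4.22 CPM (SD, n = 6). Here the low library was replicate 2, and the other libraries spanned 13.9 to 19.4 CPM. Per kilobase (kb) of combined exon length, Ntrk2 was 5.47 to 21.2 times as high as Ntrk3 within a library, and per kb of the longest protein-coding transcript, a length chosen with the data in view, 20.99 to 81.4 times as high. The mean log2 difference of Ntrk2 from Ntrk3 was 3.11 with the first length and 5.05 with the second. For Ntrk2 the second length is 8744 bases against 35504, and for Ntrk3 it is 19703 against 20837. Ntrk3 also has shorter complete protein-coding models of 2678, 2774 and 3977 bases, and ratios with those lengths were not computed. Neither gene's count says which receptor form was transcribed. GENCODE vM21 lists 7 protein-coding transcripts of Ntrk2, of which 2 encode 821 residues and 5 encode 466 to 492, the latter including the shortened receptor without a kinase. For Ntrk3 it lists 1 complete model of 612 residues beside models of 825, 839 and 864 residues.

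Among the ligand genes only Bdnf was counted above 3 reads in any library. Bdnf (chromosome 2, 109674700 to 109727043, plus strand) was counted at 18.2, 13.2, 32.5, 29.8, 37.7 and 26.7 CPM in replicates 1 to 6, with a mean of 26.4 ± 9.15 CPM (SD, n = 6). Replicates 1 and 2 were lowest and replicate 5 was highest, a 2.85-fold range. Ntf3 (chromosome 6, 126101412 to 126166772, minus strand) had 0 counts in all 6 libraries, and Ntf5 (chromosome 7, 45413695 to 45417179, plus strand) had 2 counts in replicate 2, 3 counts in replicate 4 and 0 in the others. A count of 0 allows up to 3 counts, which is 0.131 to 0.149 CPM in these libraries. Ntf3 transcripts were thus not detected at this depth, and Ntf5 was counted in replicates 2 and 4 only, near the limit of detection. Against a floor of 3 counts per library, Bdnf was at least 29.6-fold higher per kb than Ntf3 in every library, and Ntrk3, whose product is the Trk receptor for the Ntf3 ligand, was at least 5.69-fold higher than Ntf3. Against the same floor for Ntf5, Bdnf was at least 38.4-fold higher. This is not a lower bound for replicates 2 and 4, where Ntf5 was itself counted.

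**Figure D1:**
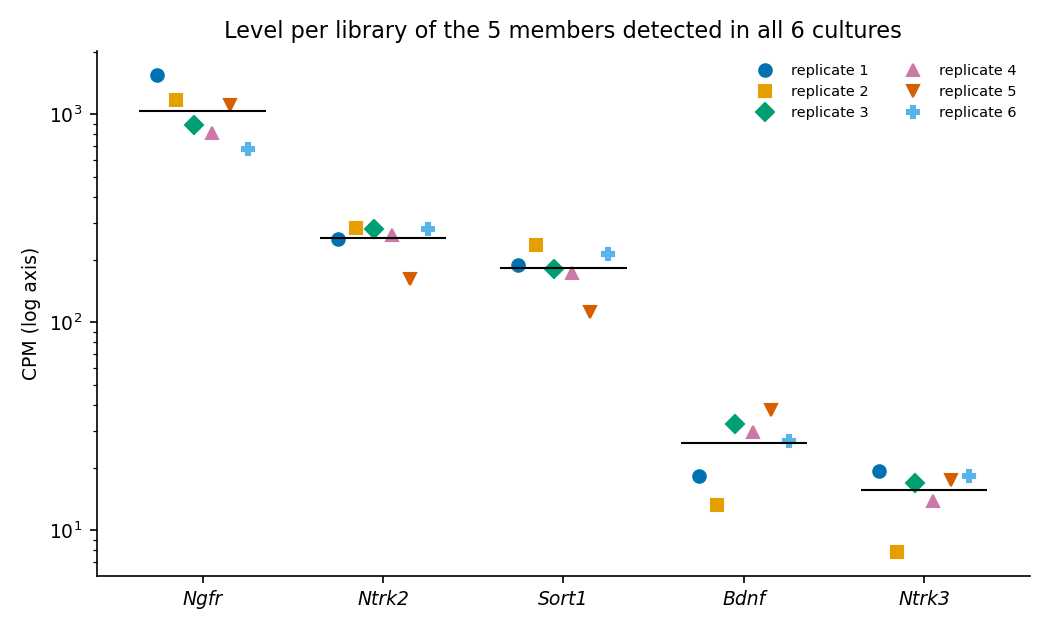
CPM on a log axis for Ngfr, Ntrk2, Sort1, Bdnf and Ntrk3, 1 symbol per replicate culture, with a line at the mean of 6 libraries. Replicate 5 is the lowest library for Ntrk2 (162 CPM) and Sort1 (112 CPM) and the highest for Bdnf (37.7 CPM), and Ntf3 and Ntf5, at or under 3 counts in every library, are not drawn.

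Levels of different genes were compared per kb of the combined exon length in the deposited table, since longer genes collect more reads. On this scale the order was Ngfr at 304 ± 91.7, Sort1 at 25.6 ± 5.80, Ntrk2 at 7.15 ± 1.32, Bdnf at 3.93 ± 1.36 and Ntrk3 at 0.750 ± 0.203 CPM per kb (SD, n = 6). The median over the 14996 filtered genes with a distinct symbol was 7.20 CPM per kb. Ngfr was above 99.3% of these genes, Sort1 above 82.1%, Ntrk2 above 49.8%, Bdnf above 35.4% and Ntrk3 above 9.86%. The share for Ntrk2 rests on its long combined exon length, and by mean CPM the gene had rank 664 of all genes. Of the 21 pairs among the 7 genes, 19 differed in the same direction in all 6 libraries and passed an exact sign-flip permutation test on log2(CPM per kb + 0.1) (two-sided p = 0.0312, the smallest that 6 libraries allow; adjusted p = 0.0345 over 21 pairs). For pairs of a counted gene with Ntf3 or Ntf5 the direction was fixed by the latter lying at or under the floor. The test adds nothing for those pairs. Among the counted genes, every pair passed except Bdnf and Ntrk2. Neighbouring genes in the order differed by 3.55 ± 0.590 for Ngfr over Sort1 and 2.21 ± 0.436 for Bdnf over Ntrk3 (log2, SD, n = 6). The difference of Bdnf from Ntrk2, -0.90 ± 0.756 (log2, SD, n = 6), did not pass the test (exact sign-flip permutation p = 0.0625, adjusted 0.0656). Bdnf was lower in 5 of 6 libraries, and in replicate 5 it was 1.23 times as high. Without replicate 5 the difference was -1.14 ± 0.533, in the same direction in all 5 libraries, with the smallest p that 5 libraries allow in the exact sign-flip permutation test (p = 0.0625). The other pair that did not pass was Ntf3 and Ntf5, both at or under the floor.

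The place of Ntrk2 in this order depended on the length used. The deposited table gives Ntrk2 a combined exon length of 35.5 kb, which is 4.06 times its longest GENCODE protein-coding transcript of 8.74 kb. For the other 4 counted members this ratio lay between 0.989 for Ngfr and 1.57 for Bdnf. Per kb of the longest protein-coding transcript, Ntrk2 reached 29.0 ± 5.36 and Sort1 26.8 ± 6.08 CPM per kb (SD, n = 6). The difference of Ntrk2 from Sort1 was -1.82 ± 0.137 with the combined exon length and 0.12 ± 0.137 with the longest transcript (log2, SD, n = 6), and the latter did not pass (exact sign-flip permutation, adjusted p = 0.131). With that length the difference of Bdnf from Ntrk2, -2.27 ± 0.765, passed (exact sign-flip permutation, adjusted p = 0.0345). Ngfr stayed highest and Ntrk3 lowest of the 5 counted genes under both lengths. For Ntrk3 these lengths are nearly equal, at 20837 and 19703 bases, so they do not test its place. Its other complete protein-coding models are 2678 to 3977 bases long, and its level with those lengths was not computed.

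**Figure D2:**
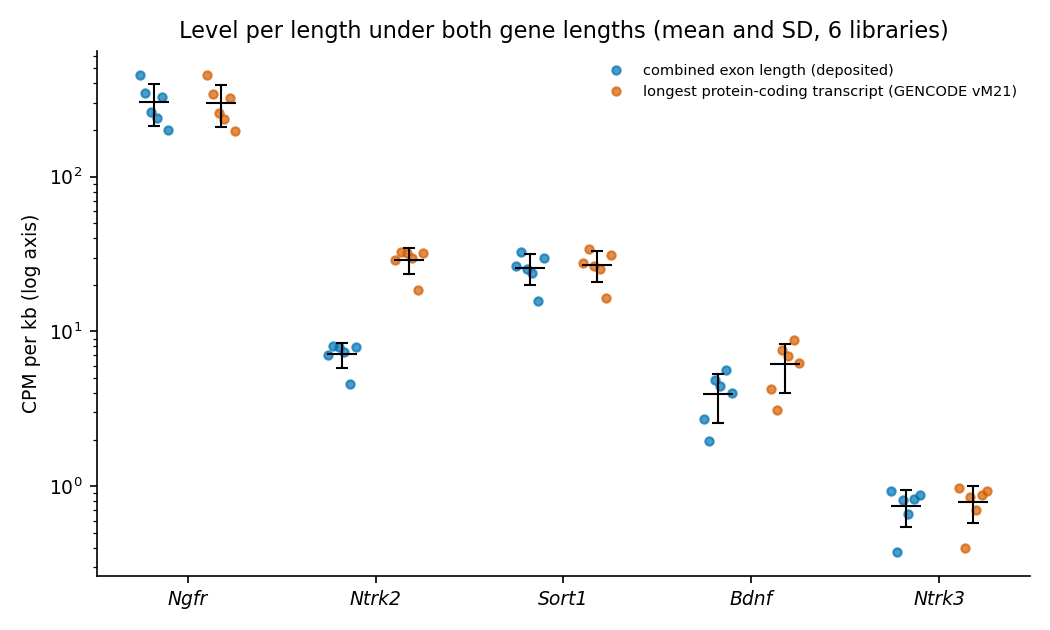
CPM per kb on a log axis for 5 members, with length taken as the combined exon length of the deposited table (blue) or as the longest GENCODE vM21 protein-coding transcript (orange). Points are the 6 libraries and bars are the mean and SD; Ntrk2 moves from 7.15 to 29.0 CPM per kb, Bdnf from 3.93 to 6.18, and Ngfr, Sort1 and Ntrk3 by less.

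All 5 counted members varied between cultures by more than counting noise. A chi-square test of each gene's 6 counts against the TMM-scaled library sizes called 5 of 5 members at an adjusted p-value under 0.05, and it called 76.3% of the 14998 genes tested, so a call was the common outcome. The statistic was 10799 for Ngfr, 1101 for Sort1, 958 for Ntrk2, 322 for Bdnf and 120 for Ntrk3 (adjusted p = 1.31e-23 for Ntrk3, the least extreme), against a median of 30.3 over all genes tested; it grows with a gene's count. The coefficient of variation over libraries was 34.7% for Bdnf, 30.2% for Ngfr, 27.0% for Ntrk3, 22.7% for Sort1 and 18.5% for Ntrk2. Single libraries decided several of these: without replicate 5 the value was 5.39% for Ntrk2 and 12.8% for Sort1, and without replicate 2 it was 12.0% for Ntrk3. Its median was 9.58% over the 10263 filtered genes with a mean of at least 10 CPM. Relative to genes of like abundance, edgeR's quasi-likelihood fit called 0 members and 0% of all genes. Unadjusted p-values from that fit were 0.0430 for Bdnf (adjusted 0.916) and 0.0674 to 0.120 for the others. Of the 14998 genes tested, 809 (5.39%) were under 0.05 unadjusted. This test recovered 0 of 200 changed genes among 14266 on data simulated with a like spread. On counts simulated with counting noise alone it recovered 177 of 200 among 14931. A single size of change was simulated, so the lack of calls says little on whether the members vary more than such genes.

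Marker genes of the cell types in the culture also differed between libraries. The 8 glial lineage markers, among them Sox10, Erbb3 and Cdh19, summed to between 4468 CPM in replicate 5 and 6531 CPM in replicate 2, and all 8 were above 1 CPM in every library. The 11 sensory neuron markers, among them Tubb3, Stmn2 and Prph, summed to 1077 CPM in replicate 5 and up to 2348 CPM in replicate 3. Not every marker followed the sum, since Prph, Elavl4, Rbfox3 and Isl1 were lowest in replicate 2. All 11 were above 1 CPM throughout. The labelled source was thus represented by both neuronal and glial genes. The 6 fibroblast markers summed to 1458 CPM in replicate 1 and up to 10078 CPM in replicate 5. Mural markers summed to 266 to 1458 CPM, macrophage markers to 9.67 to 98.0 CPM and endothelial markers to 6.44 to 105 CPM, each lowest in replicate 1 and highest in replicate 5.

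Ntrk2 and Sort1 were lowest in the library with the fewest glial lineage counts and had the highest correlations with those markers, but no relation passed the correction. Relations were computed between members and the mean log2(CPM + 0.5) of 3 marker lists, 18 in all, because Ntf3 was constant. For Ntrk2 and the glial score, Pearson's r over 6 libraries was 0.97 (exact permutation p = 0.00694, adjusted 0.0750). Spearman's rho for the same relation was 0.94 (exact permutation p = 0.0167, adjusted 0.150). With replicates 4 and 5 removed, whose glial scores were farthest from the median, r was 0.99. For Sort1 and the glial score, r was 0.95 (exact permutation p = 0.00833, adjusted 0.0750), rho was 0.94 (exact permutation p = 0.0167, adjusted 0.150), and r without the same libraries was 0.66. Leaving out replicate 5 alone gave r = 0.89 for Ntrk2 and 0.78 for Sort1. Both genes had negative r with the fibroblast score, which was highest in the same library, and these relations did not pass either. For Ntrk2 and the fibroblast score, r was -0.68 (exact permutation p = 0.163, adjusted 0.585), rho was -0.37 (exact permutation p = 0.497, adjusted 0.988), and r was -0.92 without replicates 1 and 5. For Sort1 and the fibroblast score, r was -0.75 (exact permutation p = 0.0847, adjusted 0.508), rho was -0.77 (exact permutation p = 0.103, adjusted 0.463), and r was -0.74 without the same libraries. Single libraries moved these values: without replicate 1 alone, r with the fibroblast score was -0.89 for Ntrk2 and -0.92 for Sort1 (exact permutation, adjusted p = 0.0750 for each), and without replicate 5 alone it was 0.12 and -0.35. The neuron score was also lowest in replicate 5. For Ntrk2 and the neuron score, r was 0.54 (exact permutation p = 0.3125, adjusted 0.703). For Sort1 and the neuron score, r was 0.32 (exact permutation p = 0.576, adjusted 0.805). Without replicate 2 alone these r values were 0.88 and 0.81, and without replicate 5 alone -0.39 and -0.65. The relations of these genes to the 3 scores cannot be told apart in 6 libraries. Expressed per 1000 CPM of summed glial markers, Ntrk2 was 38.6, 43.6, 45.1, 45.5, 36.2 and 45.1 in replicates 1 to 6. The coefficient of variation of this ratio was 9.32%, where that of Ntrk2 CPM was 18.5%; without replicate 5 they were 6.62% and 5.39%.

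Ngfr did not share this pattern. Its relation to the glial score had r = -0.18 (exact permutation p = 0.736, adjusted 0.867) and rho = -0.029 (exact permutation p = 1, adjusted 1), and r was -0.64 without replicates 4 and 5. Per 1000 CPM of summed glial markers, Ngfr ranged from 109 in replicate 6 to 248 in replicate 5. Replicate 5, lowest in glial markers, was thus among the 3 highest libraries for Ngfr CPM.

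Bdnf was highest where the fibroblast markers were highest in sum, within a relation that did not pass. For Bdnf and the fibroblast score, r was 0.67 (exact permutation p = 0.150, adjusted 0.585) and rho was 0.77 (exact permutation p = 0.103, adjusted 0.463). Without replicates 1 and 5, r was 0.40, and without replicate 5 alone it was 0.50. With the glial score, Bdnf gave r = -0.59 (exact permutation p = 0.224, adjusted 0.671) and rho = -0.71 (exact permutation p = 0.136, adjusted 0.490), and r was -0.026 without replicates 4 and 5. Its relation to the neuron score had r = 0.14 (exact permutation p = 0.817, adjusted 0.867) and rho = -0.086 (exact permutation p = 0.919, adjusted 0.988), and r was 0.11 without replicates 2 and 5. That value rested on single libraries, since r was 0.71 without replicate 5 alone and -0.48 without replicate 2 alone. The relations of Bdnf to the 3 scores were not tested against each other. The summed mural, macrophage and endothelial markers were also highest in replicate 5, though not every single marker was. Their part in the level of Bdnf was not tested. Ntrk3 and the neuron score gave r = 0.52 (exact permutation p = 0.293, adjusted 0.703) and rho = 0.37 (exact permutation p = 0.497, adjusted 0.988), and r was 0.42 without replicates 2 and 5. It was 0.85 without replicate 5 alone and 0.17 without replicate 2 alone. No batch is named in the labels, and values within batches could therefore not be given.

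**Figure D3:**
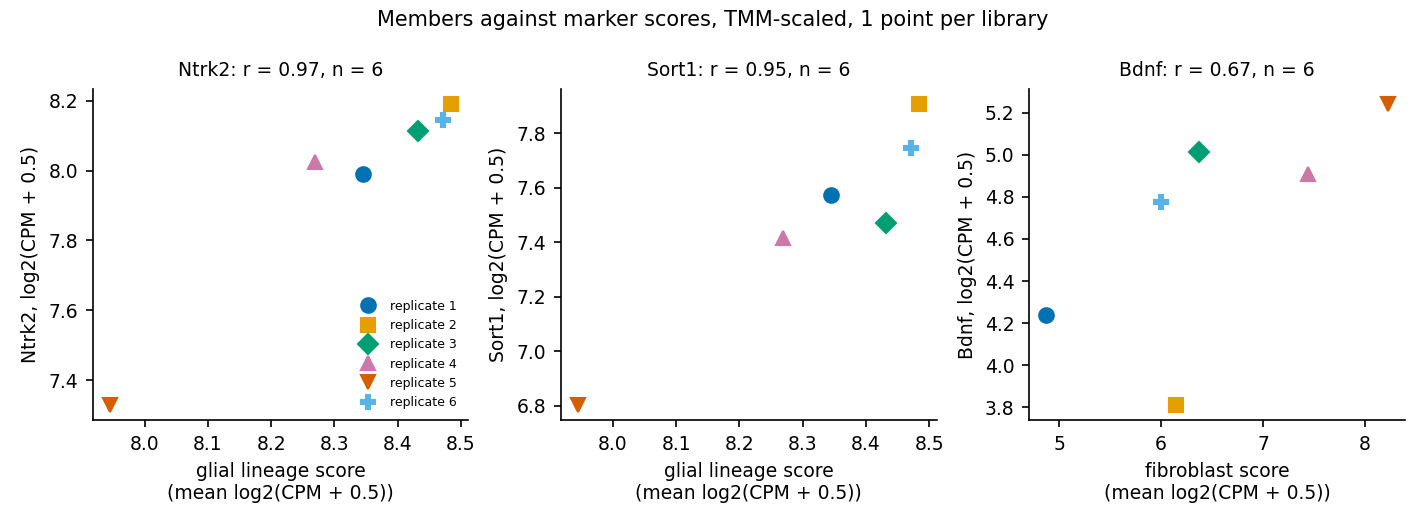
Log2(CPM + 0.5) of Ntrk2 and Sort1 against the glial lineage score and of Bdnf against the fibroblast score, with TMM-scaled CPM and 1 symbol per library. Replicate 5 lies at the low end of both glial panels (r = 0.97 and 0.95) and at the high end of the fibroblast panel (r = 0.67); no adjusted p-value was under 0.05.

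Between the members themselves, 10 relations were computed after the data were seen. Ntrk2 and Sort1 had r = 0.94 (exact permutation p = 0.0111, adjusted 0.111) and rho = 0.83 (exact permutation p = 0.0583, adjusted 0.292), and r was 0.50 without replicates 2 and 5, so the relation rests in part on those libraries. Bdnf and Sort1 ran in opposite directions, with r = -0.77 (exact permutation p = 0.0764, adjusted 0.382) and rho = -0.89 (exact permutation p = 0.0333, adjusted 0.292), and r was -0.96 without replicates 1 and 2. The other 8 had adjusted p-values for r from 0.534 to 0.938. None passed the correction.

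Genes with the most similar profile over the 6 libraries were sought by Pearson's r of log2(CPM + 0.5) among the other 10262 filtered genes of at least 10 CPM. For Ntrk2 these were Azin2, Vps9d1 and Arhgef10 (r = 0.996, 0.996 and 0.993), and 4.00% of the genes searched reached an r of 0.9. For Sort1 they were Tmem123, Slc22a17 and Emc8 (r = 0.999, 0.996 and 0.996), and 5.04% reached 0.9. The profile of Ntrk3, with its low value in replicate 2, was rarer: Tmf1, Nt5c2 and Ctif came closest (r = 0.996, 0.982 and 0.963), and 0.292% reached 0.9. Bdnf was most like Zfp862-ps, Gopc and Ppp1r12b (r = 0.996, 0.988 and 0.985), with 1.36% at 0.9 or above. Ngfr was most like Gm36356, Adamts17 and Sik3 (r = 0.984, 0.978 and 0.978), with 1.74% at 0.9 or above. With 6 points and this many genes such values are a description only.

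Marker genes of neurons of the TrkB and TrkC classes were counted unevenly. Of 6 such genes, 3 were above 1 CPM in every library: Maf at 70.4 ± 5.69 CPM, Nefh at 35.4 ± 11.9 CPM and Etv1 at 15.8 ± 2.30 CPM (SD, n = 6). Runx3, a transcription factor of TrkC neurons, averaged 0.293 ± 0.176 CPM, and Shox2, a transcription factor of TrkB neurons, 0.236 ± 0.183 CPM (SD, n = 6). Pvalb, a calcium-binding protein of proprioceptive neurons, was at or under 3 counts in all 6 libraries. Maf and Etv1 are not limited to these neurons. Nefh was highest in replicate 3 and lowest in replicate 5, as Nefl and Nefm of the sensory neuron list were. Whether neurons of these classes were present was not tested.

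Genes acting on proneurotrophins were all present. All 6 reported genes of this list were above 1 CPM in every library, and 6 of 6 varied beyond counting noise, against 76.3% of all genes. Furin, a convertase that cuts proneurotrophins, was at 188 ± 19.1 CPM, while the related convertases Pcsk7, Pcsk5 and Pcsk6 were at 40.9 ± 2.44, 13.3 ± 4.04 and 6.05 ± 2.24 CPM (SD, n = 6). Plat, the tissue plasminogen activator, which starts a protease cascade that can cut the Bdnf precursor outside the cell, was at 380.5 ± 28.8 CPM (SD, n = 6). Serpini1, an inhibitor of this protease known from neurons, was at 10.0 ± 3.37 CPM (SD, n = 6).

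The sortilin family, whose members share the domain by which sortilin binds its ligands, was led by Sorcs2. Sorcs2, a co-receptor of p75 for proneurotrophins, was at 372 ± 52.9 CPM and Sorcs1 at 241 ± 56.8 CPM, whereas Sorl1 was at 6.44 ± 2.00 CPM and Sorcs3 at 0.694 ± 0.423 CPM (SD, n = 6). Per kb, Sorcs2 at 62.8 and Sorcs1 at 27.3 CPM per kb had higher means than Sort1, at 25.6 CPM per kb, a difference that was not tested. Sorcs1 was lowest in replicate 5, at 139 CPM against 237 to 306 CPM in the other libraries, as Sort1 was. The chi-square test called all 3 tested genes of the family, where it called 76.3% of all genes, and Sorcs3 did not pass the filter and was not tested.

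Partners of the p75 receptor were counted in most cases. Of the 11 reported genes, 10 were above 1 CPM in every library and 10 varied beyond counting noise, where 76.3% of all genes did. Arhgdia, whose product holds small GTPases inactive and is bound by p75, was highest at 698 ± 28.6 CPM (SD, n = 6), with fractional counts in all 6 libraries, followed by Maged1, an adaptor of p75 in cell death, at 403 ± 27.6 CPM. Lingo1 and Rtn4r encode the 2 partners with which p75 forms the Nogo receptor complex. Lingo1 was counted at 197, 155, 73.0, 74.7, 67.8 and 91.1 CPM in replicates 1 to 6, highest in replicates 1 and 2. Rtn4r was at 0.793 ± 0.198 CPM (SD, n = 6), and per kb it was at 0.409 CPM per kb where Lingo1 was at 23.0 CPM per kb on the mean. Adam17, a protease that sheds the outer part of p75, was at 153 ± 23.6 CPM (SD, n = 6). Bex3, Traf6 and Ripk2, which bind the death domain or the inner part of p75, were at 28.0 ± 2.99, 43.9 ± 2.65 and 21.5 ± 2.64 CPM (SD, n = 6).

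Adaptors and effectors of Trk receptors kept a narrow summed level. Their 15 genes summed to between 1549 and 1612 CPM, and 14 were above 1 CPM in every library. The chi-square test called 14 of 15, where it called 76.3% of all genes. Ptpn11, a phosphatase that carries the signal to Ras, was at 285 ± 13.3 CPM, Crk at 244 ± 7.69 CPM, Kidins220, a scaffold that binds Trk receptors, at 215 ± 17.6 CPM, and Grb2 at 115 ± 6.47 CPM (SD, n = 6). The Shc adaptors, which dock on the activated Trk receptor, differed by member. Shc1 was at 109 ± 26.2 CPM and was highest in replicate 5, at 159 CPM, whereas Shc3, a form known from neurons, was at 19.6 ± 5.89 CPM and was lowest in replicate 5, at 10.9 CPM. Shc2 was at 36.7 ± 8.05 CPM (SD, n = 6). Of the Frs adaptors, Frs2 was at 73.8 ± 3.29 CPM and Frs3 at 3.49 ± 0.392 CPM, and of the Sh2b adaptors, Sh2b1 was at 65.7 ± 2.45 CPM and Sh2b2 at 1.19 ± 0.541 CPM (SD, n = 6). Most of these adaptors serve many other receptors.

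**Figure D4:**
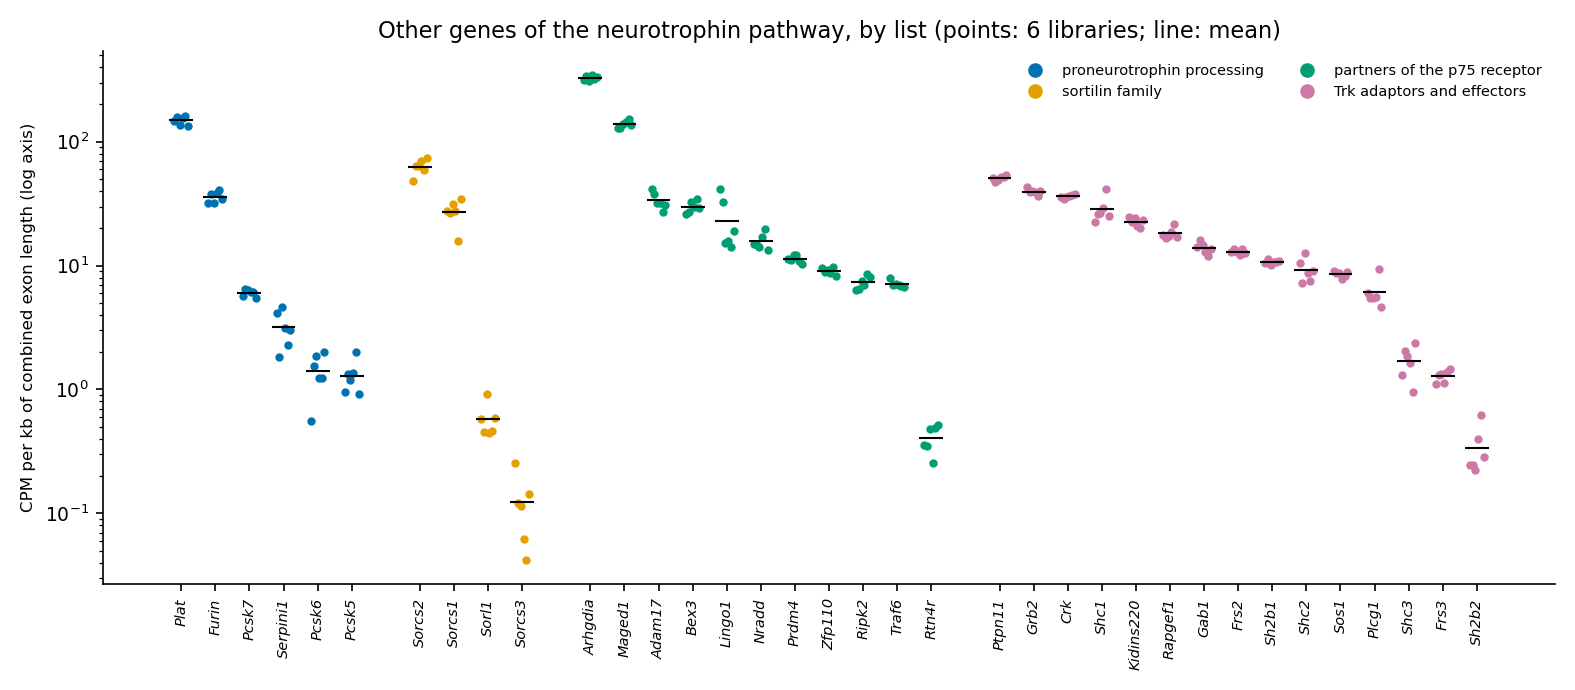
CPM per kb of combined exon length on a log axis for 36 other genes of the pathway, in 4 lists. Points are the 6 libraries and lines are means; Arhgdia, Plat and Maged1 are highest, Rtn4r, Sh2b2 and Sorcs3 are lowest in mean, and the points of Lingo1 are widely spread.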

How the data were processed

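RNA from 6 cultures of 1 group was sequenced as poly-A libraries. The submitters' processing notes name bcl2fastq 2.20.0.422, cutadapt 2.5, STAR 2.7.2b, featureCounts 1.6.4 and the build GRCm38.p6, without settings. The table the authors deposited holds estimated counts per gene, unscaled; 13.4% to 14.7% of a library's values were not whole, and how shared reads were divided is not given in the sources used here. Library totals were 20070639 to 22968642 counts. The other deposited column used, combined exon length, is in bases per gene, per the file headers.

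CPM used plain totals. Rounded counts entered edgeR 4.0.16 and, as an alternative, DESeq2 1.42.0, under R 4.3.3. The function filterByExpr kept 14998 genes and TMM factors were 0.976 to 1.02. Chi-square and quasi-likelihood tests ran on all kept genes with Benjamini-Hochberg adjustment; tested on simulated counts of 14931 genes, the chi-square found 199 of 200 that were changed. Gene pairs were compared by exact sign-flip permutation over 64 sign patterns and relations by exact permutation over 720 pairings, each two-sided. Members and lists were chosen with earlier results of these data known. Named genes were the members, the pathway and marker lists, and for each counted member the 3 genes with the highest r among those of at least 10 CPM. Alternatives were other scalings, pseudocounts, no filter, each replicate left out, and another gene length. Promoter windows came from RefSeq and transcript models from GENCODE vM21, both on GRCm38. Other genes of the family were not analysed here, and 3 listed genes are not reported here, although 1 counts in the glial marker sum and score.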

Additional observations from a re-analysis of the deposited data

Results flagged for a closer look

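The CPM of Ntrk2 in replicate 5, 162, lay apart from the other libraries, which spanned 251 to 285. The gap to the nearest library, divided by the range of the 6 libraries, was 0.730, above Dixon's 95% critical value of 0.625. The library also had the lowest sum of glial lineage markers (4468 CPM) and the highest sum of fibroblast markers (10078 CPM), and their part in the low value was not tested. Of the other counted members and the 3 marker scores used, none exceeded the critical value; chance flags about 1 in 20 groups.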

How the results depend on the processing

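The number of members with a mean of at least 1 CPM was 5 under each alternative. The number of genes varying beyond counting noise was 11444, 11436 with DESeq2 size factors, 13488 without the filter on low counts and 10098 to 11253 with a replicate left out; the 5 counted members were called each time. Under the same alternatives 0 genes varied beyond the abundance trend, and 0 of 18 relations passed with plain totals, a pseudocount of 5 or a replicate left out. With a replicate left out, the number of gene pairs passing was 0 to 0, because 5 libraries cannot give a p-value under 0.0625 in the exact sign-flip permutation test; all 21 pairs kept their direction in those fits. The pseudocount of 1 and TMM scaling left 19 pairs. The length of the longest transcript, chosen after the data were seen, turned the difference of Ntrk2 from Sort1 from -1.82 to 0.12, since it is shorter for Ntrk2 than the combined exon length. No paired comparison of sample groups was possible because the samples form 1 group. Depth limits Ntf3 and Ntf5, at or under 3 counts.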
